A study of Mus musculus with 30 samples.

Results

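This account follows 44 mouse genes of DNA repair through the blood of mice 24 h after x-irradiation with 7 Gy or without it. They were taken by symbol from the gene names on the array, and a probe entered when the scanner software called it well above background on 4 or 5 of the 5 arrays in 1 or more of 6 groups. Each gene was read from its brightest such probe, which left 38 of the 44, among 18733 genes measured of 29676 gene names on the array. The groups were p38DKI mice irradiated with 7 Gy and unirradiated, p38DN mice irradiated and unirradiated, and p38WT mice irradiated and unirradiated, with 5 one-colour Agilent arrays in each. All mice were male C57BL/6J, and the labels count the 5 arrays of a group as independent experiments. do not give the age of the mice, say which alleles DKI and DN stand for or name the cells in which they act, and the genotypes were not checked here. Blood was drawn by cardiac puncture into a stabilising lysis solution, so each array holds RNA of all blood cells together. The series asks how signalling through p38, a stress-activated kinase, bears on blood gene expression used to judge radiation exposure.

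DNA repair is a set of separate routes that share a few proteins. Breaks through both strands are sensed by the kinases Atm and Atr, marked by adaptor proteins and ubiquitin ligases on chromatin, and closed either by end joining, which ligates the ends directly and also serves B and T cells when they rearrange antigen receptor genes, or by homologous recombination, which copies an intact sister and is largely restricted to dividing cells. Base excision repair removes a damaged base with a glycosylase, cuts the strand and fills the gap. Mismatch repair corrects errors of replication, and nucleotide excision repair cuts out bulky lesions. Genes of homologous recombination are transcribed mainly in dividing cells, and mature platelets have no nucleus.

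Levels below are log2 intensity relative to the 75th percentile of the same array, and means are given with the SD. They were compared within 1 probe only. A change is irradiated minus unirradiated on that scale, with a standard error (SE) from a spread pooled over all groups by limma. A gene passed when its Benjamini-Hochberg adjusted p over all 18733 genes was under 0.05. Arrays 4 and 5 of unirradiated p38DN differed by a spread of only 0.121 (log2) over 6051 bright genes, against 0.195 or more for the other within-group pairs. They were averaged and counted once, so that this group has n = 4. On those arrays the spread between repeat spots of 1 probe was 0.0861 and 0.0827. The p38DN arrays lay on slides of their own, scanned before the others, so batch and genotype cannot be told apart for p38DN, and p38DN was not set against p38WT at a single dose. The mean level of 20 liver markers was 8.17 on p38DKI irradiated array 2, 5.85 on p38DN unirradiated array 2 and 6.97 on the averaged p38DN unirradiated sample, against -3.89 to -1.66 on the p38WT arrays. Of all probes, 39.72% to 63.24% stood well above background on an array.

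Irradiated blood held less transcript of many repair genes in every genotype. In p38DKI 18 of 38 members passed, all 18 lower, where 31.2% of all genes passed, 19.3% lower and 11.9% higher. In p38DN 12 passed, 10 lower and 2 higher, where 25.3% of all genes passed, 9.68% lower and 15.6% higher. In p38WT 18 passed, 17 lower and 1 higher, where 26.9% of all genes passed, 12% lower and 14.9% higher. The median member changed by -0.61 in p38DKI, -0.32 in p38DN and -0.61 in p38WT, while the median of all genes changed by -0.25, -0.03 and -0.03. Irradiated and unirradiated samples did not overlap for 15 members in p38DKI, all lower, where 12.5% of all genes were lower and 7.23% higher without overlap. In p38DN 9 members were lower and 1 higher without overlap (8.61% and 12.9% of all genes), the higher one being Ogg1. In p38WT 13 were lower and 2 higher (11.4% and 12.9% of all genes), the 2 being Blm and Mdc1.

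The size of the p38DKI count depended on how the arrays were scaled. With each array's median subtracted, the median of all genes in p38DKI moved to 0.17, and 4 members were lower (Exo1, Fanca, Mutyh and Parp1) and 1 higher (Ercc5). Those lower made 10.5% of the members, against 6.76% of all genes, and 13.2% of members passed in either direction, against 26.8% of all genes. With no scaling it moved to 0.37, and 2 members were lower (Mutyh and Parp1), 5.26% against 4.0% of all genes, where 24.5% of all genes passed in either direction. The members' median lay 0.36 below that of all genes under all 3 scalings. In p38WT the members' median lay 0.58 below that of all genes, and 0.57 below with either of the other scalings. These scalings differ only by a constant for each array, so the gap was all but fixed in advance. Under normexp background correction, which is not such a shift, the gap was -0.13 in p38DKI, -0.05 in p38DN and -0.25 in p38WT. In p38DN 7 members were lower and 2 higher (Ercc5 and Chek2) with the array median, and 3 lower (Fanca, Mutyh and Parp1) and 1 higher (Chek2) with no scaling, where 7.35% and 4.49% of all genes were lower. With the array median the p38DN calls of Wrn, Ung, Neil1 and Msh3 and the p38WT calls of Rad50, Lig4, Xrcc1, Ercc1 and Blm were lost. With normexp background correction 6 members passed in p38DKI, 0 in p38DN and 8 in p38WT by limma, where 7.46%, 1.24% and 7.51% of all genes passed. Without p38DKI irradiated array 2, 15 members were lower in p38DKI, among them Apex1, Ung and Xrcc5, which did not pass with it. Without it and the p38DN arrays high in liver markers, 12 were lower and 1 higher in p38DN and 23 lower and 1 higher in p38WT. That fit left out unirradiated p38DN arrays 2, 4 and 5, so arrays 1 and 3 alone stood for unirradiated p38DN. No p38WT array was left out in either fit. The shares of all genes in these fits are not given, so their member counts are descriptions only.

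Slides were a further limit in p38DKI and p38WT, where a single slide each held both doses. With slide as a fixed block Parp1 alone passed in each (3.64% and 0.870% of all genes passed), while 10 members were lower and 2 higher in p38DN. That fit used all 30 arrays, so unirradiated p38DN arrays 4 and 5 counted as separate samples in it. The share of all genes is not given for its p38DN counts, which are descriptions. On the shared slide the irradiated minus unirradiated difference had the direction of the call for 18 of 18 called members in p38DKI and 18 of 18 in p38WT. On the 5 shared p38DN slides it did for 10 to 12 of 12. Unirradiated p38DN arrays 4 and 5, the possible repeat, lay on different slides, so these slides are not all independent contrasts. The calls came from fits that included these same arrays, so agreement in direction was partly fixed in advance. Some members passed the filter in only some groups, so counts and medians over the 38 are descriptions.

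**Figure D1:**
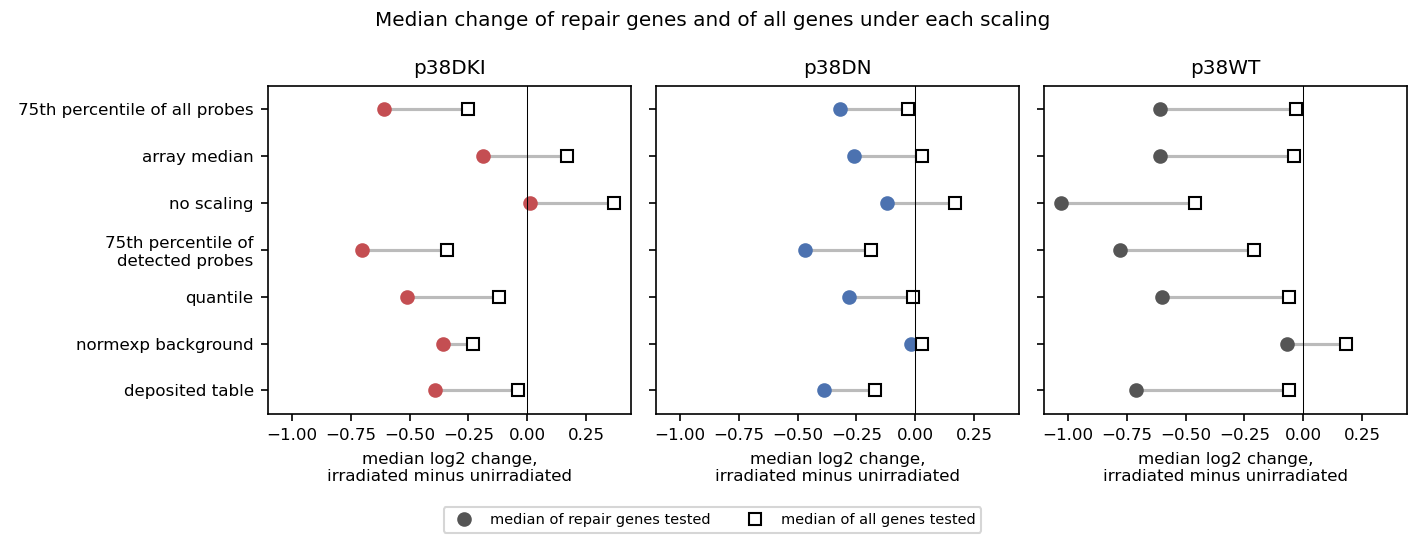
Median log2 change (x axis, irradiated minus unirradiated) of the repair genes tested (circles) and of all genes tested (squares) under 7 treatments of the array values (y axis), for p38DKI, p38DN and p38WT. The pairs shift together along the axis with the scaling, and the circle lies left of the square in every pair, for instance at -1.03 against -0.46 in p38WT with no scaling.

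Across genotypes, 6 members were lower in all 3: Parp1, Mutyh and Neil1 of base excision repair, Msh3 of mismatch repair, Fanca of crosslink repair and the kinase gene Atr. A further 9 were lower in 2 genotypes and 9 in 1, and 11 passed in none. All genes were not counted in this way, so these overlaps have no background share and are descriptions only. The 3 members that rose, Blm in p38WT and Ercc5 and Wrn in p38DN, passed in no other genotype. No member was higher in 1 genotype and lower in another. Each genotype had its own unirradiated samples, so these calls share no arrays, though they share the pooled spread.

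**Figure D2:**
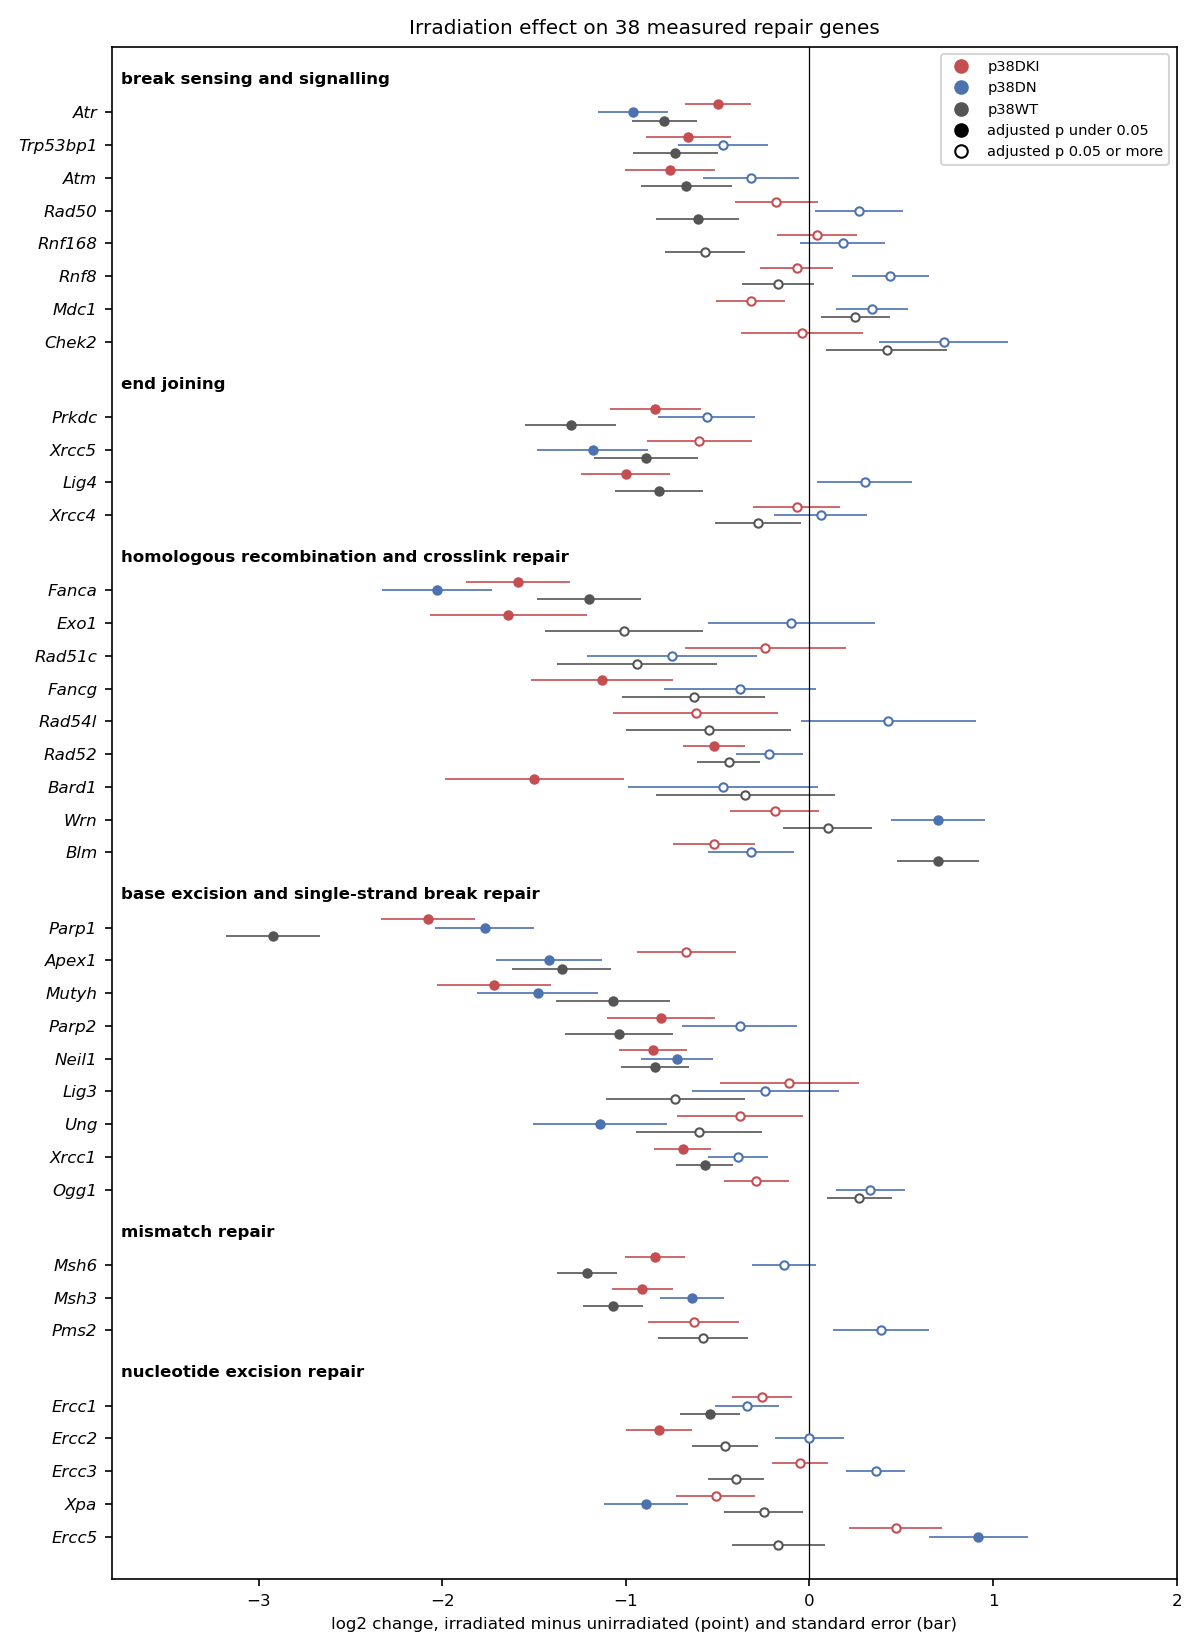
Log2 change after irradiation (x axis, points) with its standard error (bars) for each of the 38 measured members, grouped by repair route, in p38DKI (red), p38DN (blue) and p38WT (grey). Filled points passed at an adjusted p under 0.05; most filled points lie left of 0, with Parp1 farthest left at -2.92 in p38WT.

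Base excision and single-strand break repair held Parp1, the member with the largest fall in p38DKI and p38WT. Parp1, whose product senses strand breaks and builds poly(ADP-ribose) chains that recruit repair proteins, is measured by a probe on chromosome 1 (mm9, 182530341 to 182530639). In p38DKI its level was -1.39, -0.46, -1.52, -1.54 and -1.55 on the irradiated arrays, against 0.26, 0.64, 1.54, 0.85 and 0.67 on the unirradiated arrays. In p38DN it was -1.30, -0.82, -1.5, -1.23 and -1.56 in irradiated samples, against 0.47, 0.66, 0.94 and -0.12 in unirradiated samples. In p38WT it was -2.53, -1.5, -1.56, -2.06 and -1.97 on irradiated arrays, against 1.20, 1.16, 0.78, 1.20 and 0.63 on unirradiated arrays. No irradiated sample reached the lowest unirradiated sample of its genotype, and the irradiated p38DKI array closest to doing so was array 2, the one highest in liver markers. Parp1 fell 4.24-fold in p38DKI (log2 -2.08, SE 0.256, adjusted p = 1.51e-06), 3.41-fold in p38DN (log2 -1.77, SE 0.271, adjusted p = 3.95e-05) and 7.57-fold in p38WT (log2 -2.92, SE 0.256, adjusted p = 7.87e-09). The p38DKI and p38WT calls held under all 20 other settings and without any single sample, and the p38DN call was lost only with normexp background correction (log2 -0.71, adjusted p = 0.0874). On the slides that held irradiated and unirradiated arrays of a genotype, Parp1 differed by -2.41 in p38DKI, by -2.44 to -1.06 in p38DN (5 slides) and by -2.50 in p38WT.

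Of the 4 glycosylase genes measured, Mutyh and Neil1 passed as lower in all 3 genotypes, Ung passed as lower in p38DN, and Ogg1 passed in none. Mutyh, which removes adenine paired with oxidised guanine, stood at -0.90, -2.86, -1.38, -0.89 and -1.12 on irradiated p38DKI arrays, against -0.26, 0.64, 0.78, 0.17 and 0.11 on unirradiated ones. In p38DN it stood at -2.71, -2.59, -2.89, -3.20 and -3.32 in irradiated samples, against -1.02, -1.43, -1.02 and -2.37 in unirradiated samples. The groups did not overlap, and Mutyh was 3.3-fold lower in p38DKI (log2 -1.72, SE 0.31, adjusted p = 0.000197), 2.79-fold lower in p38DN (log2 -1.48, SE 0.329, adjusted p = 0.00157) and 2.1-fold lower in p38WT (log2 -1.07, SE 0.31, adjusted p = 0.0113). A second, dimmer Mutyh probe changed by -1.87, -1.52 and -1.01 in p38DKI, p38DN and p38WT. That probe was kept only through unirradiated p38DKI and p38WT, so its falls are not separate support. In p38DN it was well above background on 0 irradiated and 2 unirradiated arrays. Neil1, a glycosylase for oxidised pyrimidines, stood at -0.63, -0.51, -0.60, -0.70 and -0.48 on irradiated p38DKI arrays, against -0.33, 0.72, 0.54, 0.15 and 0.27 on unirradiated ones. In p38DN it stood at -1.64, -1.27, -1.83, -1.33 and -1.56 in irradiated samples, against -1.13, -0.41, -0.64 and -1.05 in unirradiated samples, and in p38WT at -0.76, -0.40, -0.15, -0.62 and -0.72 on irradiated arrays, against 0.24, 0.32, 0.30, 0.60 and 0.07 on unirradiated arrays. Its irradiated samples lay below all unirradiated samples of the genotype. Neil1 changed by nearly the same amount in each, -0.85 in p38DKI (adjusted p = 0.00117), -0.72 in p38DN (adjusted p = 0.00804) and -0.84 in p38WT (adjusted p = 0.00142), and its second probe by -0.77, -0.64 and -0.71. With the array median subtracted the Neil1 values were -0.43 in p38DKI (adjusted p = 0.184) and -0.66 in p38DN (adjusted p = 0.0604).

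Apex1 encodes the endonuclease that cuts the strand at a site without a base. In p38DN its level was -1.77, -0.66, -0.61, -0.77 and -1.63 in irradiated samples, against 0.67, 0.45, 0.02 and 0.19 in unirradiated samples. In p38WT it was -0.55, -0.85, -0.26, -1.08 and -0.61 on irradiated arrays, against 0.69, 0.59, 0.83, 0.89 and 0.41 on unirradiated arrays. These groups did not overlap, and Apex1 was 2.68-fold lower in p38DN (log2 -1.42, SE 0.287, adjusted p = 0.000663) and 2.55-fold lower in p38WT (log2 -1.35, SE 0.271, adjusted p = 0.000596). In p38DKI Apex1 averaged 0.30 ± 0.705 on irradiated and 0.97 ± 0.215 on unirradiated arrays (SD, n = 5 each), a difference that did not pass (log2 -0.67, SE 0.271, adjusted p = 0.0594). Irradiated p38DKI array 2, at 1.41, lay above every unirradiated p38DKI array, and without it Apex1 changed by -0.95 (adjusted p = 0.00377).

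Xrcc1, the scaffold that brings the ligase encoded by Lig3 to a break, stood at 0.77, 0.73, 0.83, 1.17 and 0.84 on irradiated p38DKI arrays, against 1.39, 1.66, 1.89, 1.51 and 1.35 on unirradiated ones. It was 1.62-fold lower in p38DKI (log2 -0.69, SE 0.155, adjusted p = 0.00154) and 1.49-fold lower in p38WT (log2 -0.57, SE 0.155, adjusted p = 0.00687). Its p38DKI value was -0.27 (adjusted p = 0.421) with the array median subtracted. In p38DN Xrcc1 changed by -0.39 (adjusted p = 0.0846). Parp2, a second break-sensing polymerase, fell by 0.81 in p38DKI (adjusted p = 0.0381) and by 1.04 in p38WT (adjusted p = 0.00956) on the log2 scale, and the p38DKI call was lost without any 1 of 7 p38DKI samples (irradiated 2, 4 and 5, unirradiated 2, 3, 4 and 5), with adjusted p of 0.0544 to 0.121. Ung, which removes uracil and also acts on antibody genes in activated B cells, passed only in p38DN (log2 -1.14, SE 0.364, adjusted p = 0.0222), and its adjusted p was 0.0657 without irradiated sample 1 and 0.0894 without unirradiated sample 3. In p38WT the Parp2 value was 0.09 (adjusted p = 0.742) with normexp background correction. Lig3 and Ogg1, the glycosylase for oxidised guanine, passed in no genotype. In all, 5 of the 9 measured members of this route were lower in p38DKI, 5 in p38DN and 6 in p38WT. Of all genes 19.3%, 9.68% and 12% were lower in that order.

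**Figure D3:**
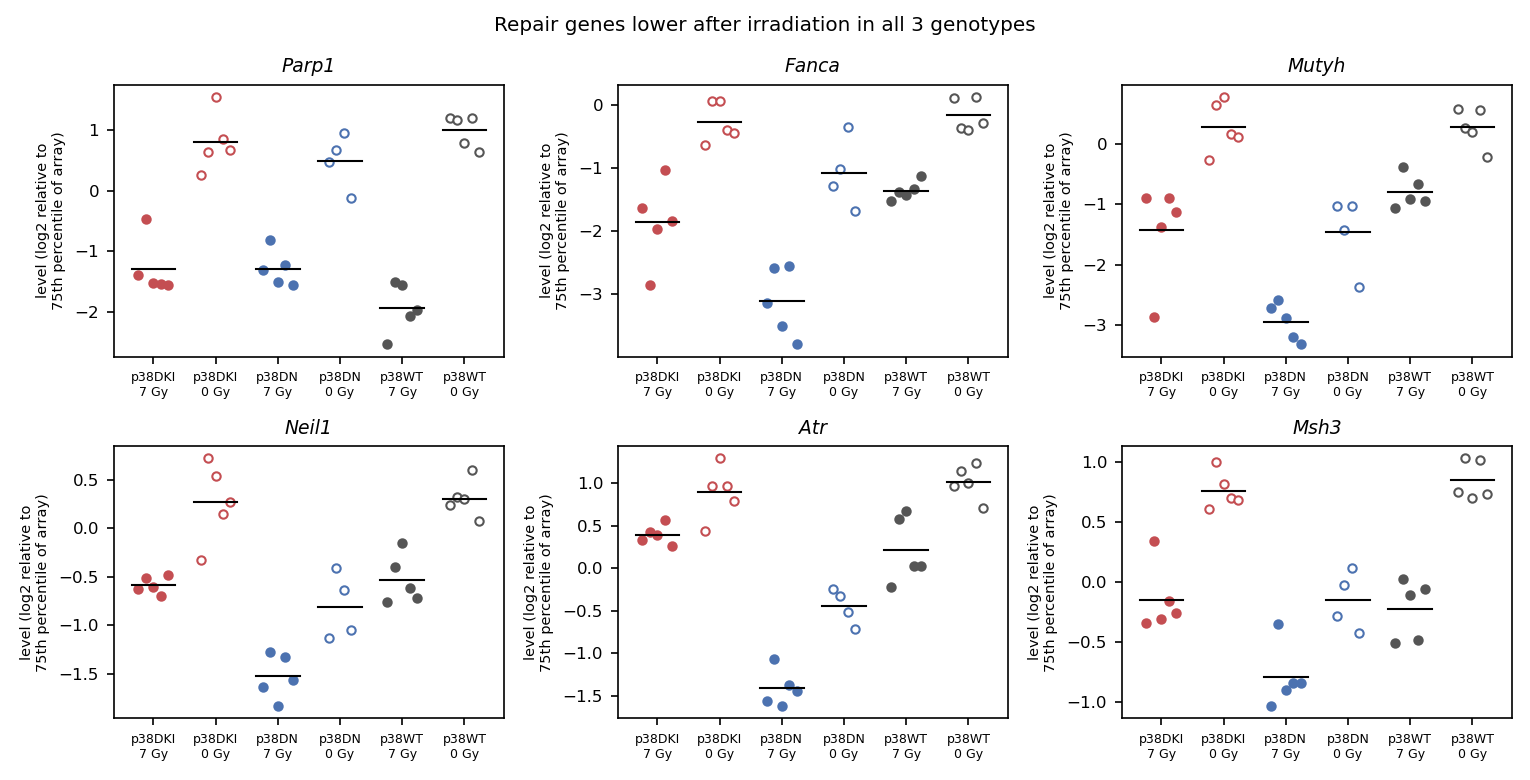
Level of Parp1, Fanca, Mutyh, Neil1, Atr and Msh3 (y axis, log2 relative to the 75th percentile of the array) in each sample (points) of the 6 groups (x axis; filled, irradiated; open, unirradiated), with the group mean as a line. Parp1 lies between -2.53 and -0.46 in all irradiated samples and between -0.12 and 1.54 in all unirradiated samples.

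Mismatch repair had 3 measured members. Msh6 and Msh3 encode subunits of the complexes that recognise mispaired bases and small loops. Msh6 (probe on chromosome 17, mm9, 88390143 to 88390202) stood at 0.61, 0.90, 0.70, 0.84 and 0.59 on irradiated p38DKI arrays, against 1.14, 1.5, 1.69, 1.89 and 1.65 on unirradiated ones. In p38WT it stood at 0.24, 0.58, 0.67, 0.18 and 0.29 on irradiated arrays, against 1.68, 1.66, 1.54, 1.72 and 1.42 on unirradiated arrays. Neither pair of groups overlapped, and Msh6 was 1.8-fold lower in p38DKI (log2 -0.84, SE 0.163, adjusted p = 0.000387) and 2.32-fold lower in p38WT (log2 -1.21, SE 0.163, adjusted p = 5.73e-06). In p38DN it stood at 0.33, 0.53, 0.01, 0.60 and 0.60 in irradiated samples, against 0.64, 0.67, 0.78 and 0.12 in unirradiated samples, which overlapped, and the change of -0.14 did not pass (adjusted p = 0.607). Its p38DKI value was -0.42 (adjusted p = 0.173) with the array median subtracted and -0.48 (adjusted p = 0.115) with normexp background correction.

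Msh3 gave different answers on different probes. The brightest probe (chromosome 13, mm9, 92981875 to 92981934) stood at -0.34, 0.34, -0.31, -0.16 and -0.26 on irradiated p38DKI arrays, against 0.61, 1.0, 0.82, 0.70 and 0.68 on unirradiated ones. In p38WT it stood at -0.51, 0.03, -0.11, -0.48 and -0.06 on irradiated arrays, against 0.75, 1.03, 0.70, 1.02 and 0.73 on unirradiated arrays. On this probe Msh3 was 1.88-fold lower in p38DKI (log2 -0.91, SE 0.165, adjusted p = 0.000213), 1.56-fold lower in p38DN (log2 -0.64, SE 0.175, adjusted p = 0.00778) and 2.1-fold lower in p38WT (log2 -1.07, SE 0.165, adjusted p = 3.53e-05). The irradiated and unirradiated samples overlapped in p38DN, and not in p38DKI or p38WT. A dimmer Msh3 probe (93019783 to 93019842), which passed the filter in 4 groups, changed by 0.00 in p38DKI, 1.04 in p38DN and 0.18 in p38WT. Those 4 were the p38DKI and p38WT groups. In p38DN that probe was well above background on 1 irradiated and 0 unirradiated arrays, so its p38DN value lies near background. The mean of both probes no longer passed in p38DKI (-0.46, adjusted p = 0.151), p38DN (0.20, adjusted p = 0.63) or p38WT (-0.45, adjusted p = 0.19). Pms2, which acts in the nicking step of mismatch repair, changed by -0.63 in p38DKI, 0.39 in p38DN and -0.58 in p38WT and passed in none, with adjusted p of 0.0525, 0.288 and 0.0835.

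Promoters of the members were read for letters bound by factors of cell cycle and housekeeping genes. RefSeq windows of 300 bases (GRCm38.p6), from 250 before to 50 after the start, matched 37 of the 44 members and gave 41 windows. The letters searched on both strands were TTTGGCGC, TTTCCCGC, TTTCGCGC and TTTGCCGC of the E2F type, CCAAT of the NF-Y type, GGGCGG of the Sp1 type and TTTGAA of the CHR type. The windows of 4 members are shown because Parp1 had the largest fall, Fanca the largest in p38DN, Msh6 the difference between genotypes given below, and Msh3 the fall that differed between probes. Capitals mark the searched letters on either strand.
Parp1: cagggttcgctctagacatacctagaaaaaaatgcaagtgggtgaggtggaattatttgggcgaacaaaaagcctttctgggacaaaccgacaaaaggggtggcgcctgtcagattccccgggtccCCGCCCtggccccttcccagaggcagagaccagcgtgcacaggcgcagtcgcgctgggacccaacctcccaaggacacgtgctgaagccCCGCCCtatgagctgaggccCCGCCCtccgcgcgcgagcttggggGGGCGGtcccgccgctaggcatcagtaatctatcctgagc
Fanca: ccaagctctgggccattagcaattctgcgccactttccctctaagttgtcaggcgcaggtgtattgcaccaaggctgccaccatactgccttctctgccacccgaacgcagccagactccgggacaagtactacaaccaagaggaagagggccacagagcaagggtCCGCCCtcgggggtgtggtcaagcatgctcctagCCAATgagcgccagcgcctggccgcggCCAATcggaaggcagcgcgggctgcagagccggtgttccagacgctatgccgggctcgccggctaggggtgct
Msh6: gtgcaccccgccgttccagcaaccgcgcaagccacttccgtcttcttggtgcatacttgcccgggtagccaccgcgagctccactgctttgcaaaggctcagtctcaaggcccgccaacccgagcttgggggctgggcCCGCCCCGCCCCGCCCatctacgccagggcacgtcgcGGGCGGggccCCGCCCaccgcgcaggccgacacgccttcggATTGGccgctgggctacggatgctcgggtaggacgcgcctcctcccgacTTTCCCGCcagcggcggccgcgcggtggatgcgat
Msh3: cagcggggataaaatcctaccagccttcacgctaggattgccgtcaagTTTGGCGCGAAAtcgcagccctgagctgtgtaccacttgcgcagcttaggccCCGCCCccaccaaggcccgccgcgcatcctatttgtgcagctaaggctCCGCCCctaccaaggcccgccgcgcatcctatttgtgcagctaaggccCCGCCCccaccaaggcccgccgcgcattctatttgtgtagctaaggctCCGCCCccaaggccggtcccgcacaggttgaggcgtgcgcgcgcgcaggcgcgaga
The Parp1 window (chr1:180568641-180568940, plus strand) held GGGCGG or its reverse complement 4 times and none of the other letters, and the Fanca window (chr8:123318527-123318826, minus strand) held CCAAT 2 times and the Sp1 letters 1 time. The Msh6 window (chr17:87974800-87975099, plus strand) held TTTCCCGC at position 266 of the window, 15 bases past the start, with CCAAT 1 time and the Sp1 letters 5 times, of which 3 share end bases. The Msh3 window (chr13:92354954-92355253, minus strand) held TTTGGCGC at position 49, overlapping TTTCGCGC read on the other strand at position 53, and the Sp1 letters 4 times. E2F-type letters stood in 9 of the 41 member windows (22.0%, of 8 genes: Bard1, Brca2, Chek2, Fancg, Mdc1, Msh3, Msh6 and Rad51c), against 2.26% of all 32851 windows. CCAAT stood in 51.2% of member windows and 37.4% of all windows, GGGCGG in 70.7% and 35.7%, and TTTGAA in 7.32% and 17.9%. E2F-type letters stood in 17.4% of windows of members called lower in a genotype, against 27.8% of windows of the other members. For CCAAT these were 43.5% and 61.1%, for GGGCGG 69.6% and 72.2%, and for TTTGAA 4.35% and 11.1%. Counted by gene, E2F-type letters stood in 4 of 21 members called lower and in 4 of 16 other members. The other members took in Brca1, Brca2, Chek1 and Palb2, which were not measured and could not be called. Such matches are letters in a window and were not tested as binding sites, and a link to the falls was not tested.

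Among end joining genes, Prkdc encodes the catalytic subunit of the DNA-dependent protein kinase. In p38WT it stood at -2.92, -2.22, -2.74, -3.13 and -2.35 on irradiated arrays, of which 3 were well above background, against -1.18, -1.46, -1.33, -1.26 and -1.61 on unirradiated arrays. The groups did not overlap and Prkdc was 2.47-fold lower (log2 -1.30, SE 0.248, adjusted p = 0.000348), but with normexp background correction the value was 0.01 (adjusted p = 0.975). In p38DKI Prkdc was 1.78-fold lower (log2 -0.84, SE 0.248, adjusted p = 0.0124), and in p38DN the change of -0.56 did not pass (adjusted p = 0.118). Xrcc5, a subunit of the Ku complex that caps broken ends, stood in p38DN at -2.05, -2.54, -2.23, -2.77 and -1.82 in irradiated samples, against -0.99, -1.19, -0.87 and -1.35 in unirradiated samples. It was 2.27-fold lower in p38DN (log2 -1.18, SE 0.302, adjusted p = 0.00486) and 1.85-fold lower in p38WT (log2 -0.89, SE 0.285, adjusted p = 0.0219). The p38WT groups overlapped, and the call was lost there, with adjusted p of 0.0647 without irradiated array 5 and 0.0542 without unirradiated array 4. Lig4, the ligase that seals the ends, was 2-fold lower in p38DKI (log2 -1.0, SE 0.242, adjusted p = 0.00292) and 1.77-fold lower in p38WT (log2 -0.82, SE 0.242, adjusted p = 0.0128), where its adjusted p was 0.0564 without unirradiated array 4. With normexp background correction it was 0.15 in p38WT (adjusted p = 0.59). In p38DN it changed by 0.30 (adjusted p = 0.417). Xrcc4, the partner of that ligase, passed in no genotype, with changes of -0.07, 0.06 and -0.28 in p38DKI, p38DN and p38WT.

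Of the 8 measured genes that sense and signal breaks, 3 were lower in p38DKI, 1 in p38DN and 4 in p38WT, and none was higher. Of all genes 19.3%, 9.68% and 12% were lower in that order, and 11.9%, 15.6% and 14.9% higher. Atr, the kinase activated by single-stranded DNA, stood in p38DN at -1.56, -1.07, -1.62, -1.37 and -1.44 in irradiated samples, against -0.25, -0.33, -0.51 and -0.71 in unirradiated samples. In p38WT it stood at -0.22, 0.58, 0.67, 0.03 and 0.03 on irradiated arrays, against 0.97, 1.14, 1.0, 1.23 and 0.71 on unirradiated arrays. Neither pair overlapped, and Atr was 1.95-fold lower in p38DN (log2 -0.96, SE 0.19, adjusted p = 0.000516) and 1.73-fold lower in p38WT (log2 -0.79, SE 0.179, adjusted p = 0.00171). In p38DKI it was 1.41-fold lower (log2 -0.5, SE 0.179, adjusted p = 0.0365), with overlap, and the call was lost without any 1 of 6 samples (irradiated 1, 3 and 5, unirradiated 2, 3 and 4; adjusted p 0.0592 to 0.0983). It was 0.13 (adjusted p = 0.84) with no scaling. A dimmer Atr probe that passed the filter only in the 2 p38DN groups changed by -1.19, -0.40 and -0.23 in p38DKI, p38DN and p38WT. It was well above background on 1 irradiated and 2 unirradiated p38DKI arrays, and on 0 and 2 in p38WT. The mean of both probes, which takes in those values near background, no longer passed in p38WT (-0.51, adjusted p = 0.0997).

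Atm, the kinase activated at breaks through both strands, fell 1.7-fold in p38DKI (log2 -0.76, SE 0.246, adjusted p = 0.0203) and 1.6-fold in p38WT (log2 -0.67, SE 0.246, adjusted p = 0.043). The p38DKI call was lost without irradiated array 2 (adjusted p = 0.0505) or unirradiated array 2 (0.0677), and the p38WT call without any 1 of 6 arrays (irradiated 1 and 5, unirradiated 1 to 4; 0.0656 to 0.153). With normexp background correction Atm was 0.16 in p38WT (adjusted p = 0.589). Trp53bp1, whose product binds chromatin at breaks and favours end joining, fell 1.58-fold in p38DKI (log2 -0.66, SE 0.231, adjusted p = 0.0315) and 1.66-fold in p38WT (log2 -0.73, SE 0.231, adjusted p = 0.0201). Its p38DKI call was lost without any 1 of 6 samples (irradiated 2, 3 and 5, unirradiated 1, 3 and 4; adjusted p 0.0557 to 0.0843), and its p38WT call without irradiated array 4 (adjusted p = 0.0667). Rad50, of the complex that first binds broken ends, fell 1.53-fold in p38WT with an adjusted p of 0.0468, which was 0.0504 to 0.133 without any 1 of 16 of the 29 samples. Its changes of -0.18 in p38DKI and 0.27 in p38DN did not pass. The ubiquitin ligase genes Rnf8 and Rnf168, the kinase gene Chek2 and Mdc1, an adaptor that binds phosphorylated histone at breaks, passed in no genotype.

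Fanca, part of the Fanconi anaemia core complex that responds to DNA crosslinks, was the member with the largest fall in p38DN. In p38DKI it stood at -1.64, -2.85, -1.96, -1.03 and -1.84 on irradiated arrays, against -0.64, 0.06, 0.06, -0.40 and -0.45 on unirradiated arrays. In p38DN it stood at -3.15, -2.58, -3.50, -2.56 and -3.8 in irradiated samples, with 2 arrays well above background, against -1.29, -1.02, -0.35 and -1.68 in unirradiated samples. In p38WT it stood at -1.53, -1.38, -1.42, -1.34 and -1.12 on irradiated arrays, against 0.12, -0.36, -0.40, 0.13 and -0.29 on unirradiated arrays. The irradiated and unirradiated samples did not overlap in any genotype. Fanca was 3-fold lower in p38DKI (log2 -1.59, SE 0.283, adjusted p = 0.000173), 4.1-fold lower in p38DN (log2 -2.03, SE 0.3, adjusted p = 2.51e-05) and 2.3-fold lower in p38WT (log2 -1.20, SE 0.283, adjusted p = 0.00238). With normexp background correction the p38DN and p38WT values were -0.31 (adjusted p = 0.729) and -0.38 (adjusted p = 0.201).

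Exo1, Bard1, Fancg and Rad52 of recombination and crosslink repair passed as lower in p38DKI and in neither other genotype, and the difference between the p38DKI and p38WT effects passed for none of them. Exo1, a nuclease that resects broken ends and also acts in mismatch repair, averaged -3.67 ± 1.07 on irradiated and -2.02 ± 0.408 on unirradiated p38DKI arrays (SD, n = 5 each) and was 3.13-fold lower (log2 -1.64, SE 0.429, adjusted p = 0.00519). Exo1 was kept only through unirradiated p38DKI and p38WT, and 2 irradiated p38DKI arrays were well above background. Bard1, the partner of Brca1, was 2.84-fold lower in p38DKI (log2 -1.5, SE 0.487, adjusted p = 0.0208), but its groups overlapped, and 2 other kept probes changed by -0.15 and 0.05. The Bard1 call was lost without irradiated array 2 or 3 or unirradiated array 2 or 5 (adjusted p 0.0562 to 0.0755). Fancg, of the same core complex as Fanca, fell by 1.13 (adjusted p = 0.0288) and Rad52, which anneals single strands, by 0.52 (adjusted p = 0.0226) in p38DKI. Fancg passed the filter in 3 groups. The Fancg call was lost without irradiated array 1 or 2 or unirradiated array 2 (0.0569 to 0.0897), and the Rad52 call without irradiated array 2 (0.0655). The Rad52 call was also lost in 8 of 20 other settings, and with no scaling Rad52 was 0.10 (adjusted p = 0.84). In p38WT Exo1 was -1.01 (adjusted p = 0.0842) and Rad52 -0.44 (adjusted p = 0.0598), and each passed as lower there in 9 of 20 other settings. Those settings refit the same arrays and are not separate support. Exo1 was well above background on 0 irradiated and 4 unirradiated p38WT arrays, so its irradiated p38WT level lies near background. Rad51c and Rad54l passed in no genotype.

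Helicase genes of the RecQ family, which unwind recombination and replication intermediates, rose in single genotypes. Blm stood in p38WT at -0.72, -1.34, -1.43, -1.41 and -1.45 on irradiated arrays, against -2.40, -1.83, -2.41, -1.74 and -1.48 on unirradiated arrays. All irradiated arrays lay above all unirradiated ones, -1.45 being the lowest and -1.48 the highest, and Blm rose 1.63-fold (log2 0.70, SE 0.221, adjusted p = 0.0189), with adjusted p of 0.0635 to 0.0651 without irradiated array 1 or unirradiated array 1 or 3. The value was 0.70 (adjusted p = 0.0726) with the array median and 0.28 (adjusted p = 0.542) with no scaling. Its changes of -0.52 in p38DKI and -0.32 in p38DN did not pass. Wrn averaged -2.71 ± 0.546 in irradiated (n = 5) and -3.41 ± 0.436 in unirradiated p38DN samples (n = 4), where no unirradiated array was well above background, so that it was at least 1.16-fold higher (adjusted p = 0.0481). That call was lost without any 1 of 21 of the 29 samples (adjusted p 0.0506 to 0.143), and in 11 of 19 other settings, among them the array median (adjusted p = 0.0864).

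Nucleotide excision repair changed in single members. Ercc2, a helicase of the transcription factor complex that opens DNA around a lesion, stood in p38DKI at -0.42, -0.22, -0.30, -0.04 and -0.51 on irradiated arrays, against 0.34, 0.71, 0.51, 0.52 and 0.54 on unirradiated arrays. It was 1.77-fold lower without overlap (log2 -0.82, SE 0.178, adjusted p = 0.00115), and the value was -0.40 (adjusted p = 0.233) with the array median subtracted. Xpa, which verifies the damage, stood in p38DN at 1.04, 1.40, 1.08, 1.16 and 1.04 in irradiated samples, against 1.76, 1.90, 2.55 and 1.94 in unirradiated samples. It was 1.86-fold lower without overlap (log2 -0.89, SE 0.228, adjusted p = 0.00488), and a second kept probe changed by -0.87. Ercc1, of the nuclease that cuts on one side of a lesion, fell 1.45-fold in p38WT (log2 -0.54, SE 0.163, adjusted p = 0.0155), with an adjusted p of 0.0546 without irradiated array 4. Ercc5, the nuclease of the other side, rose 1.89-fold in p38DN (log2 0.92, SE 0.268, adjusted p = 0.0126), where it averaged -1.69 ± 0.656 in irradiated (n = 5) and -2.61 ± 0.143 in unirradiated samples (n = 4) and 2 unirradiated arrays were well above background. Those samples overlapped, and the adjusted p was 0.0947 with no scaling. Ercc3, the other helicase of that complex, passed in no genotype.

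Members that stayed unmeasured were Nbn, Chek1, Brca1, Brca2, Palb2 and Fancd2. Brca1 and Fancd2 were well above background on 0 of 30 arrays. Nbn was closest to the filter from outside, on 3 of 5 unirradiated p38WT arrays, as was a Palb2 probe on 3 of 5 unirradiated p38DKI arrays. Rad54l was just inside it, on 4 of 5 irradiated p38DKI arrays. In all, 25 of the 38 measured members passed the filter in all 6 groups.

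The genotype comparisons asked whether repair transcripts differed in p38DKI from p38WT at the same dose. Without irradiation 0 of 38 members passed by limma (0.101% of all genes passed), 2 were under an unadjusted p of 0.05, and the smallest adjusted p was 0.444. After irradiation 2 passed (4.19% of all genes). Mdc1 stood at -0.01, -1.24, -0.23, -0.34 and -0.48 on irradiated p38DKI arrays, against 0.28, 0.09, 0.16, 0.47 and 0.20 on irradiated p38WT arrays. It was 1.63-fold lower in p38DKI without overlap (log2 -0.70, SE 0.187, adjusted p = 0.0347), but the call was lost without p38DKI irradiated array 2 (-0.51, adjusted p = 0.104) or p38WT irradiated array 1, 3 or 4 (adjusted p 0.0505 to 0.0883). Apex1 averaged 0.30 ± 0.705 on irradiated p38DKI and -0.67 ± 0.312 on irradiated p38WT arrays (SD, n = 5 each) and was 1.96-fold higher in p38DKI (log2 0.97, SE 0.271, adjusted p = 0.0424). Without p38DKI irradiated array 2 the Apex1 difference was 0.69 (adjusted p = 0.139), and it was lost without any 1 of 12 samples (p38DKI irradiated 2 and 3, p38DKI unirradiated 4 and 5, p38DN unirradiated 2, p38WT irradiated 1, 2, 4 and 5, and p38WT unirradiated 1 to 3). With the array median or no scaling, 0 members passed in this comparison. No slide held irradiated arrays of both genotypes, and with slide as a fixed block the differences were -0.32 for Mdc1 and 0.28 for Apex1, each with an adjusted p of 1. Fitted with each array's liver marker level, they were -0.35 for Mdc1 (adjusted p = 0.246) and 0.79 for Apex1 (adjusted p = 0.212).

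The irradiation effects themselves were then compared. Between p38DKI and p38WT the difference passed for 0 of 38 members and for 0 of all genes (0%), and 4 members were under an unadjusted p of 0.05, with 0.128 the smallest adjusted p. Between p38DN and p38WT it passed for 1 member, where 0.774% of all genes passed, and 10 were under an unadjusted p of 0.05. That member was Msh6, whose effect was -0.14 in p38DN and -1.21 in p38WT, a difference of 1.07 (SE 0.238, adjusted p = 0.0336). The call was lost without any 1 of 10 samples (p38DN irradiated 2 and 4, p38DN unirradiated 2 and 4, p38WT irradiated 1 and 4, p38WT unirradiated 1 to 4), with adjusted p of 0.0553 to 0.0712. With the array median it was 1.14 (adjusted p = 0.1), with no scaling 1.70 (adjusted p = 0.0787) and with slide as a fixed block 0.87 (adjusted p = 0.655). Liver markers stood at 5.85 and 6.97 on p38DN unirradiated samples 2 and 4. Fitted with each array's liver marker level, the Msh6 difference was 1.05 (limma, adjusted p = 0.017), and without the 4 arrays highest in liver markers it was 0.92 (limma, adjusted p = 0.0411). In that last fit unirradiated p38DN rested on arrays 1 and 3 alone. Within the 5 slides that held a p38DN irradiated and unirradiated array, Msh6 differed by -0.77 to 0.57. For Lig4, which passed as lower in p38DKI and p38WT, the difference between p38DN and p38WT was 1.12 (adjusted p = 0.106), and for Blm it was -1.22 between p38DKI and p38WT (adjusted p = 0.128).

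**Figure D4:**
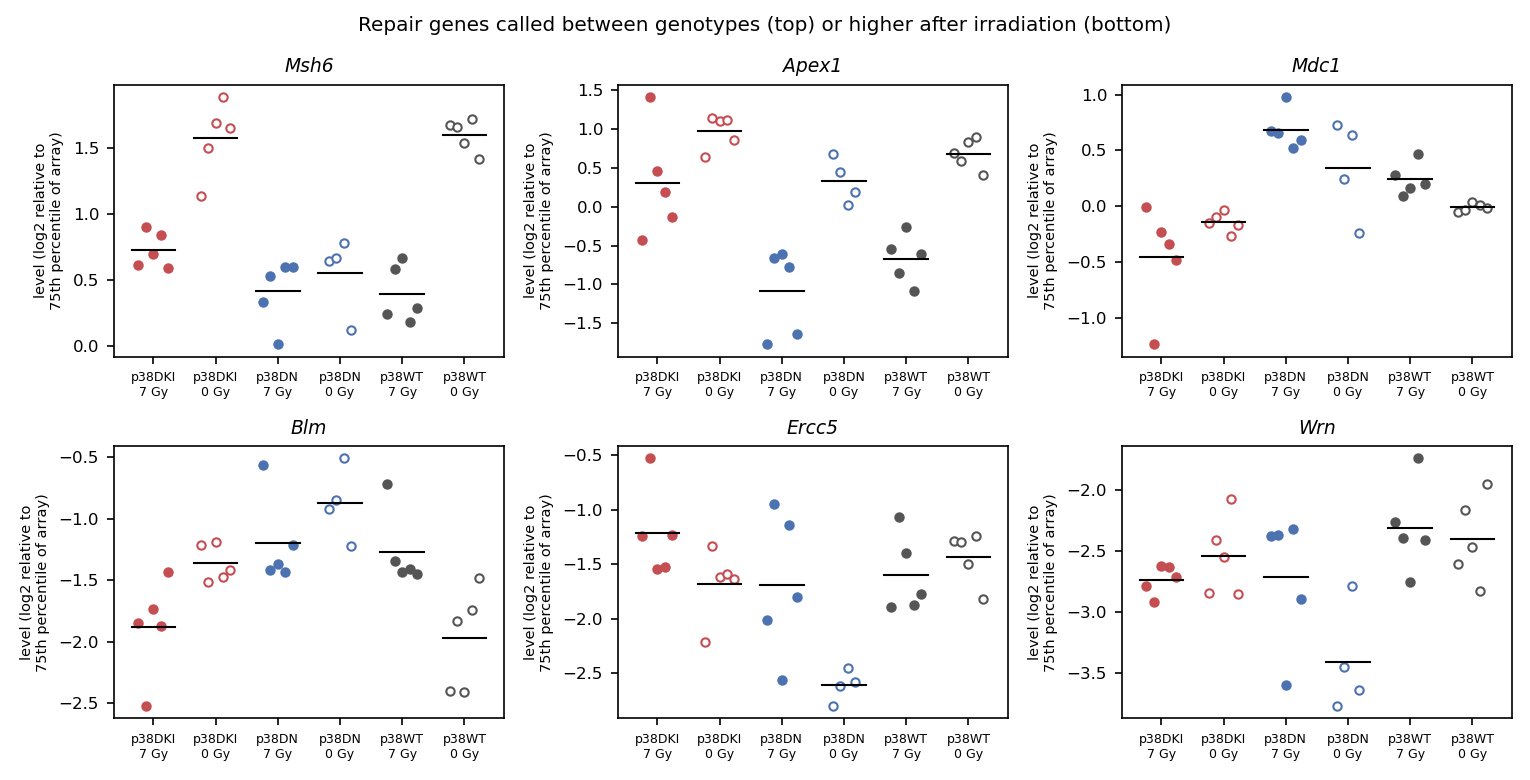
Level of Msh6, Apex1 and Mdc1 (top, each passing in a comparison between genotypes) and of Blm, Ercc5 and Wrn (bottom, each higher after irradiation in 1 genotype), on the y axis as log2 relative to the 75th percentile of the array, for each sample (points) of the 6 groups on the x axis (filled, irradiated; open, unirradiated), with the group mean as a line. Irradiated p38DKI array 2 lies apart for Apex1 at 1.41 and for Mdc1 at -1.24.

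A list of 109 other repair genes, 94 of them measured, gave the surrounding routes. In p38DKI 33 were lower and 2 higher, where 19.3% of all genes were lower and 11.9% higher. In p38DN 12 were lower and 5 higher, against 9.68% and 15.6% of all genes. In p38WT 27 were lower and 5 higher, against 12% and 14.9% of all genes. The median of the 94 changed by -0.41, -0.18 and -0.33 in that order of genotypes, and that of all genes by -0.25, -0.03 and -0.03. The lowest adjusted p among those that fell in p38WT belonged to Rpa1, a subunit of the protein that coats single-stranded DNA (2.25-fold lower, adjusted p = 0.000133). Rad1, of the sliding clamp that activates Atr, was 1.90-fold lower (adjusted p = 0.000543). Dntt, the polymerase that adds bases at antigen receptor joints in immature lymphocytes, was 13.1-fold lower (adjusted p = 0.000977). Among those that rose in p38WT were Dclre1c, the Artemis nuclease of end joining (1.83-fold, adjusted p = 0.00346), Xpc, a damage sensor of nucleotide excision repair and a p53 target (1.57-fold, adjusted p = 0.0112), Rad54b (2.78-fold, adjusted p = 0.0149) and Recql5 (2.32-fold, adjusted p = 0.0477).

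Markers of blood cell types moved in the same samples. Of 18 B cell markers, 17 fell in p38DKI, 16 in p38DN and 17 in p38WT, with median changes of -3.91, -2.56 and -3.96. Their mean level ranged from -2.51 to -0.18 on irradiated and 2.48 to 3.33 on unirradiated p38DKI arrays. In p38DN it ranged from -0.70 to 0.38 in irradiated and 1.65 to 2.93 in unirradiated samples, and in p38WT from -1.18 to -0.52 on irradiated and 2.71 to 3.31 on unirradiated arrays. Of 16 T cell markers 14, 6 and 6 fell in p38DKI, p38DN and p38WT. Of 13 measured neutrophil markers 9 rose and 1 fell in p38DKI, 2 rose in p38DN and 11 rose in p38WT. Of 13 platelet markers 4, 13 and 12 rose, and of 16 measured erythroid markers 9, 9 and 6 fell while 1, 3 and 3 rose, in that order of genotypes. Of 19 measured proliferation markers 10, 3 and 4 fell in p38DKI, p38DN and p38WT, and 1 rose in p38DN. Beside these lists, 19.3%, 9.68% and 12% of all genes were lower in p38DKI, p38DN and p38WT, and 11.9%, 15.6% and 14.9% higher. Marker counts near these shares do not set a cell type apart. The mean level of the 38 repair genes ranged from -1.51 to -1.09 in irradiated and -1.27 to -0.75 in unirradiated p38DN samples, which overlapped, and from -1.11 to -0.66 on irradiated and -0.45 to -0.06 on unirradiated p38WT arrays. In whole blood, fewer cells of a type and less RNA per cell cannot be told apart, and the part of these shifts in the fall of the repair genes was not tested. Of 20 measured liver and 9 measured heart muscle markers 0 passed by limma after irradiation in any genotype.

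**Figure D5:**
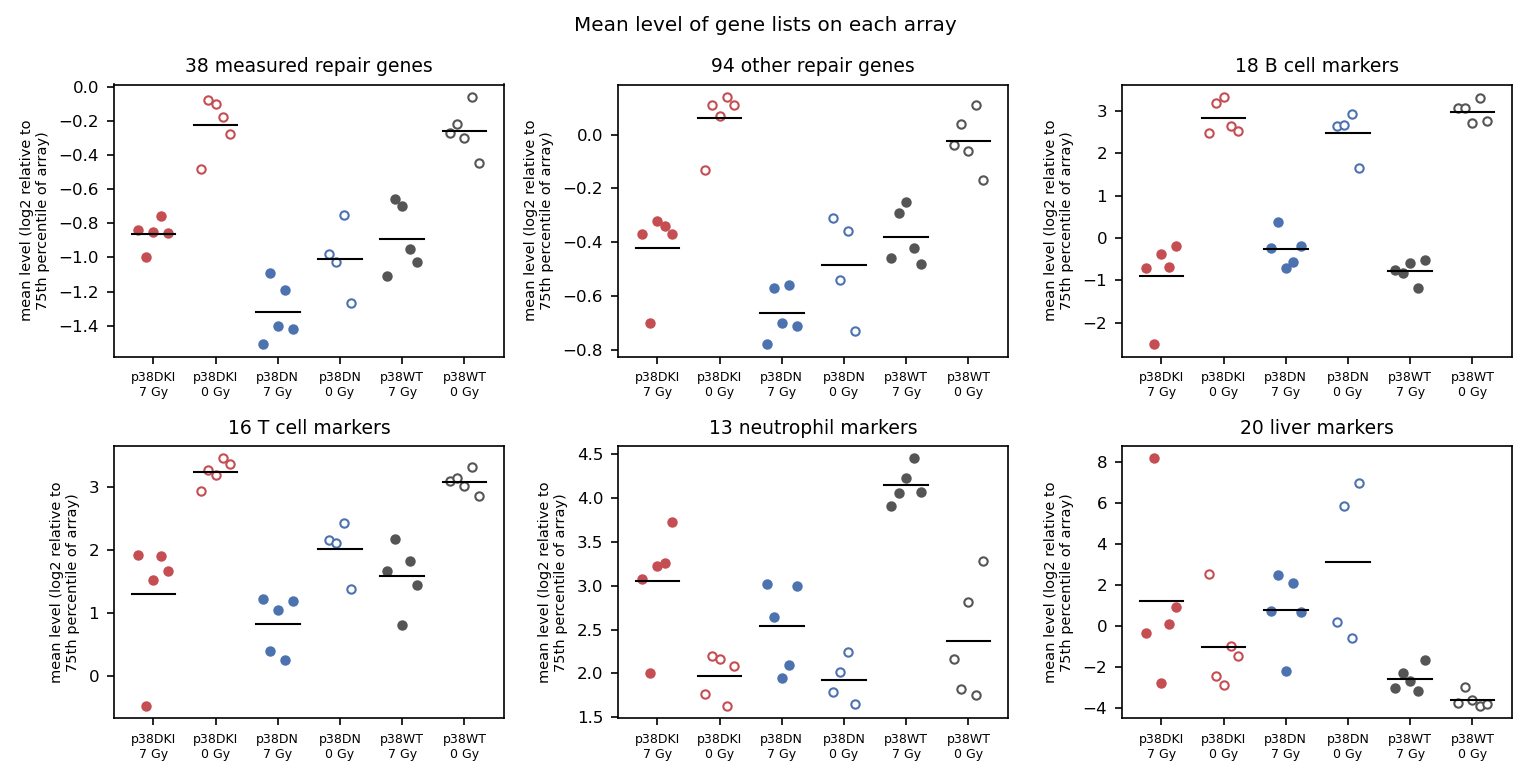
Mean level of 6 gene lists (y axis, log2 relative to the 75th percentile of the array) in each sample (points) of the 6 groups (x axis; filled, irradiated; open, unirradiated), with the group mean as a line. The 38 repair genes range from -1.0 to -0.76 on irradiated and -0.48 to -0.08 on unirradiated p38DKI arrays, and the B cell markers separate the doses in every genotype, while liver markers are high on single arrays.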

How the data were processed

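Spot intensities were deposited as 1 scanner file per one-colour array (Agilent Feature Extraction 12.0.2 per the submitters' processing notes). Per the file headers, the processed intensity is background-subtracted and detrended within an array. Probe positions are those of mm9, per the file headers. The deposited table of log2 values, in which 1 constant per array had been subtracted, as found by setting it against the scanner values, served as an alternative. All per-sample columns were mapped by label.

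From the processed intensity of 39429 non-control probes, log2 was taken and each array's 75th percentile subtracted. Spots marked non-uniform or population outliers were left out. A probe was kept when well above background on at least 4 of 5 arrays of a group (23617 probes), and genes were read from their brightest kept probe. limma 3.58.1 in R 4.3.3 (lmFit, eBayes) was fitted to 6 group means over 29 samples with 23 residual degrees of freedom, arrays 4 and 5 of unirradiated p38DN having been averaged as a possible repeat. Adjusted p-values are Benjamini-Hochberg over all genes tested. Groups followed the labels, and p-values measure the spread between these samples.

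Members and lists were chosen with earlier results of these data known. Members given array by array were, for each irradiation effect, up to 8 with the smallest adjusted p among members called without overlap, and up to 4 called in each other comparison. Of other repair genes, the 5 with the smallest adjusted p called in each direction in p38WT were taken, and some of them are not reported here. Members outside this rule were named after their values were seen. The lists named are B cell, T cell, neutrophil, platelet, erythroid, proliferation, liver and heart muscle markers. A probe below background on every array of a group was given a lower bound on its fold.

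Precision is limited by the number of arrays. On simulated data for the p38WT comparison (18492 genes, 50 changed genes at each size), 2% of genes changed by 0.5 on the log2 scale were called, 40% at 1, 82% at 2 and 98% at 4, with 6 of 18292 unchanged genes called. Far fewer genes changed there than the 26.9% called in the real comparison, which makes the adjusted p stricter. Those percentages therefore do not give the sensitivity of the real fit. Alternatives were other scalings, normexp background correction (offset 50), filters, probe averaging, array weights, slide and replicate blocks, and leaving out arrays.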

Additional observations from a re-analysis of the deposited data

Results flagged for a closer look

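The 90 combinations examined paired each group with a named member or with the mean level of the measured members. In 5 of the 90 a single sample lay apart from the rest of its group by Dixon's criterion, and chance gives about 1 in 20. On p38DKI irradiated array 2 Msh3 was 0.34, against -0.34 to -0.16 on the other irradiated p38DKI arrays. On the same array Mutyh was -2.86, against -1.38 to -0.89, and Parp1 was -0.46, against -1.55 to -1.39. In p38DN irradiated sample 2 Msh3 was -0.35, against -1.03 to -0.84 in the other irradiated samples. On p38DKI irradiated array 4 Xrcc1 was 1.17, against 0.73 to 0.84. The irradiation effect on Msh6 differed between p38DN and p38WT by 1.07 (log2).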

How the results depend on the processing

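For 27 results on single members, 1321 values under 49 other settings gave 1216 with the same direction and call and 3 in the other direction, the others keeping the direction without the call. Those 3 were Msh3 in the deposited table, which holds its dimmer probe, at 0.22 in p38DKI and 0.60 in p38WT, and Prkdc in p38WT with normexp at 0.01, where the cause was not tested. Calls of single members that held whichever 1 sample was left out were 11 of 18 in p38DKI, 10 of 12 in p38DN and 11 of 18 in p38WT.

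Members called in p38DKI numbered 18, and 5 with the array median, 2 with no scaling, 6 with normexp, 10 in the deposited table and 1 with slide as a fixed block, where 31.2% of all genes were called in the first fit and 26.8%, 24.5%, 7.46%, 34.2% and 3.64% in the others in that order. The deposited table held 31 of the members among 15301 genes, so its 10 were 32.3% of those tested. In p38DN 12 were called, and 4 with no scaling and 0 with normexp, all by limma (with the 75th percentile 17 had an unadjusted p under 0.05), where 25.3%, 17.6% and 1.24% of all genes were called. In p38WT 18 were called, and 8 with normexp, 28 with array weights and 1 with slide as a fixed block, where 26.9%, 7.51%, 38.1% and 0.87% of all genes were called. For irradiated p38DKI against irradiated p38WT the count was 2, and 1 with the percentile of detected probes, with quantile normalization or without the 4 arrays high in liver markers. It was 0 with the array median, no scaling, normexp, the deposited table, no filter, array weights, only the groups compared, slide as a fixed block, the liver level as a covariate or without p38DKI irradiated array 2. Unirradiated, 2 were called with array weights. For the p38DN minus p38WT difference the count was 1, and 8 with array weights, 4 without p38DKI irradiated array 2, 3 with slide as a random block or the liver covariate, 2 without the 4 liver-high arrays, and 0 with the array median, no scaling, normexp, the deposited table, no filter or slide as a fixed block. For the comparisons between genotypes, shares of all genes are not given beside these counts, which are descriptions. The causes were not tested.

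Leaving out 1 sample gave 13 to 19 members in p38DKI, 10 to 12 in p38DN, 14 to 25 in p38WT, 0 to 2 between irradiated genotypes, 0 to 0 unirradiated, 0 to 0 for the p38DKI minus p38WT difference and 0 to 4 for the p38DN minus p38WT difference. The largest count in p38WT came without p38DKI irradiated array 2. Shares of all genes are not given beside these ranges, which are descriptions.

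Deviations of same-numbered irradiated and unirradiated arrays correlated from -0.21 to 0.40 in p38DKI and -0.13 to 0.30 in p38WT, where they lay on different slides. In p38DN each same-numbered pair shared a slide, with correlations of -0.15 to 0.41 and 3 of 5 pairs correlating best with their own number. As each genotype held pairs below 0, the numbers were not used to pair samples. In p38DN 12 members were called with slide as a fixed block. With a replicate block 19 members were called in p38DKI, 12 in p38DN, 18 in p38WT, 2 between irradiated genotypes and 1 for the p38DN minus p38WT difference.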
